A study of Mus musculus with 8 samples.

Results

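The protein-coding genes within 10 Mb of MAARS on mouse chromosome 2 were examined in macrophages in which MAARS had been knocked down. MAARS (Gm14461) is annotated as a lincRNA on the plus strand at chromosome 2, 78237547 to 78302230 (GRCm38, GENCODE M21). Genes were chosen by position, with a start between 68237547 and 88302230, and by a mean raw count of at least 10 over the 8 libraries. Of 278 protein-coding genes of this window in the count table, 109 had any count and 73 reached that mean. Leaving out 6 genes set aside by name or name prefix gave 67 members, of 49315 genes in the table. All 67 members were among the 13051 genes that could be tested. The mean count uses both groups together, so it does not fix the direction of any difference between them.

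Bone marrow-derived macrophages (BMDMs) are macrophages grown in culture from marrow precursors, here from C57BL/6 mice, with macrophage colony-stimulating factor at 10 ng per ml. They were transfected with 25 nM of a gapmeR, a short antisense oligonucleotide with modified ends that recruits RNase H to cut its target RNA. RNA-Seq was carried out on 4 libraries with a negative control gapmeR (replicates 2, 5, 6 and 7) and 4 with a MAARS gapmeR (replicates 9, 11, 13 and 15). The sources used here do not say whether the cultures of a group came from separate mice, so the p-values measure the spread between these samples. The labels do not give the number or sequences of the MAARS gapmeRs, and an effect of MAARS loss cannot be told apart from another effect of these oligonucleotides.

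Long noncoding RNAs can act on genes near their own site of transcription, which is called action in cis, or on genes elsewhere in the genome, which is called action in trans. A regulator acting in cis may act through its transcript, through the act of transcription or through enhancer elements in its DNA. A gapmeR lowers the transcript after transcription has begun, and the comparison here asks how the surrounding genes were expressed when the RNA was lowered.

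The start region of MAARS is shown as the point from which distances are counted, that of Ube2l6 because it had the largest difference of the 67 members, and that of Med19 because it lies on the start region of its neighbour Tmx2, which differed by the same amount. All 3 genes are on the plus strand, and each sequence is the reference from 250 bases before to 50 after the start (RefSeq, GRCm38.p6), at chr2:78237297-78237596, chr2:84798578-84798877 and chr2:84678152-84678451. Capitals mark the letters GAAANNGAA, the core recognised by interferon regulatory factors, searched on both strands.
MAARS: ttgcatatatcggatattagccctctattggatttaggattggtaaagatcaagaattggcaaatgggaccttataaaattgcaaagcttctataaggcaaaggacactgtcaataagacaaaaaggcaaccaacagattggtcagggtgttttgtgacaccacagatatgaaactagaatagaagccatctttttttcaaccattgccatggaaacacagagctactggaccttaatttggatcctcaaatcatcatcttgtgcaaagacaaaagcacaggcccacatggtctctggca
Ube2l6: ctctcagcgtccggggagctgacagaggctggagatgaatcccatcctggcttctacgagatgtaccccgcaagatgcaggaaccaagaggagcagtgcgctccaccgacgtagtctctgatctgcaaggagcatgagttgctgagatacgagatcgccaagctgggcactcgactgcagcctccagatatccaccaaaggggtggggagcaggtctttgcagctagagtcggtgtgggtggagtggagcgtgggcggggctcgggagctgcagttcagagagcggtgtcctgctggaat
Med19: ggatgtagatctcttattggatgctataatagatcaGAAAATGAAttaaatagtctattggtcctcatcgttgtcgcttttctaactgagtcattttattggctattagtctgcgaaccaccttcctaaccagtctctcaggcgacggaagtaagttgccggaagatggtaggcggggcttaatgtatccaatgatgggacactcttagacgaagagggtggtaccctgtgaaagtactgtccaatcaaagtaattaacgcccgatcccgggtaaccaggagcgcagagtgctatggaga
The letters were found in the Med19 window, starting at base 37, and not in the other two windows, which says nothing about sequence outside them. They occurred in 8.56% of 32851 windows of this length. Of the 67 members 57 had a window, and 8 of these held the letters (14.0%, against 9.76% of 27025 genes), namely Spc25, Fastkd1, Klhl23, Mettl8, Dcaf17, Wipf1, Tmx2 and Med19. The Med19 window and the window of a Tmx2 start shared 273 bases, so their match is the same site.

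MAARS itself was measured first, as a check of the labels. Levels are given as CPM, in which each count is divided by its library's TMM-adjusted total. MAARS was 12.2, 15.1, 12.98 and 12.2 in the control libraries and 7.71, 6.41, 7.31 and 5.85 in the MAARS gapmeR libraries. No library of one group reached the other. The log2 fold change was -0.95 (95% confidence interval -1.19 to -0.70, edgeR adjusted p = 5.8e-05). MAARS thus fell by 48.1%, and part of the transcript remained.

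Of the 67 members, 34 (50.7%) differed at an adjusted p under 0.05 by edgeR's quasi-likelihood test, against 45.4% of all genes tested. Lower expression after MAARS knockdown was called for 20 members (29.9%, against 24.0% of all genes) and higher expression for 14 (20.9%, against 21.3%). With upper-quartile scaling the split was 16 lower and 17 higher. Higher calls then made up 51.5% of the called members, against 60.4% of all called genes. In the main fit these shares were 41.2% and 47%. The groups did not overlap for 31 members (46.3%, against 42.1% of all genes). The median log2 fold change was -0.08 over the members and 0.01 over all genes tested. The median absolute log2 fold change was 0.20 over the members and 0.23 over all genes. Among the 871 protein-coding genes tested on chromosome 2 outside the window, 46.3% were called. No difference particular to the window was tested. Among the 11800 protein-coding genes tested with a mean count of at least 10, 47.5% were called, 25.3% lower and 22.2% higher. The groups did not overlap for 44.0% of them. The gap to all genes was wider with no filter and with DESeq2, which took in more genes. With no filter 28 members were called (41.8%), against 23.3% of 24350 genes. With DESeq2 33 were called (49.3%), against 37.4% of 15380 genes. Those fits also held genes under the mean count that every member had to reach, so their shares do not compare like genes.

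The share of members called did not rise toward MAARS. Within 1 Mb, 0 of 3 members were called, between 1 and 2 Mb 3 of 7, between 2 and 5 Mb 7 of 15, and between 5 and 10 Mb 24 of 42. At higher coordinates the farthest member lay at 6.75 Mb, so the last band is cut short on that side. The median absolute log2 fold change was 0.08, 0.19, 0.21 and 0.24 in these bands. Across the 67 members the absolute log2 fold change and the distance had a Spearman's rho of 0.16, and neighbouring members share stretches of chromosome and are not independent points. The absolute log2 fold change had a rho of -0.33 with the log2 mean count, so counting depth moved with the size of the estimates. At lower coordinates than MAARS 20 of 44 members were called (45.5%, against 45.4% of all genes), 13 lower and 7 higher. At higher coordinates 14 of 23 were called (60.9%), 7 in each direction. These 14 include 6 from a stretch, Selenoh to Timm10, that was picked out after the values were seen. All of that stretch lies in the band from 5 to 10 Mb.

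**Figure D1:**
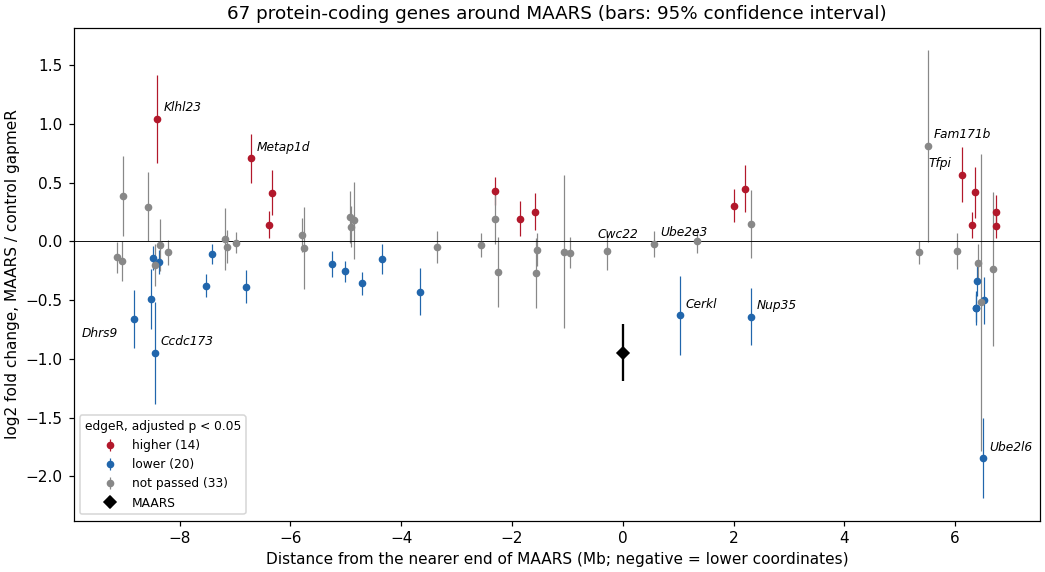
Log2 fold change of each of the 67 members (MAARS gapmeR over control gapmeR, bars show the 95% confidence interval) against its distance in Mb from the nearer end of MAARS, with MAARS as a diamond. Ube2l6 at 6.50 Mb lies lowest at -1.85, and the members closest to MAARS lie near 0.

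**Figure D2:**
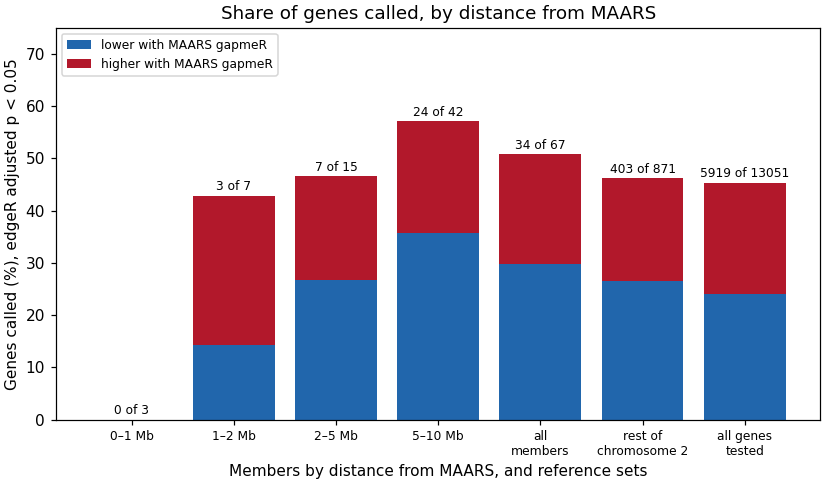
Percent of genes called lower (blue) or higher (red) by edgeR at an adjusted p under 0.05, by distance band and in reference sets, with the number called above each bar. The bands hold 3, 7, 15 and 42 members, and the band from 5 to 10 Mb reaches 57.1% against 45.4% of all genes tested.

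The 3 members within 1 Mb of MAARS were expressed at similar levels in both groups. Cwc22, a splicing factor that loads the exon junction complex, lies 0.291 Mb away. Its level was 30.7, 31.6, 32.6 and 36.2 CPM with control gapmeR and 29.5, 30.6, 28.8 and 34.8 CPM with MAARS gapmeR. These ranges overlap, and the log2 fold change was -0.08 (interval -0.25 to 0.08, edgeR adjusted p = 0.378). Ube2e3, a ubiquitin-conjugating enzyme 0.566 Mb away, was 62.6, 69.2, 68.1 and 71.2 CPM with control gapmeR and 66.2, 65.7, 70.1 and 65.5 CPM with MAARS gapmeR. All 4 MAARS gapmeR values fell inside the control range, and the log2 fold change was -0.02 (interval -0.13 to 0.09, edgeR adjusted p = 0.772). Sestd1, a protein with a SEC14 domain and spectrin repeats, lies 0.957 Mb away and was 68.1, 74.7, 69.7 and 61.1 CPM with control gapmeR and 66.2, 63.0, 62.3 and 64.4 CPM with MAARS gapmeR. Its groups overlap and its log2 fold change was -0.10 (interval -0.23 to 0.03, edgeR adjusted p = 0.205). Without control replicate 7, its lowest control library, Sestd1 was called lower at -0.15 (edgeR adjusted p = 0.0422). The intervals allow changes of up to about -0.25 in Cwc22 and -0.23 in Sestd1, so small differences in these genes are not excluded by these 8 libraries. In all, 23 other genes of any type in the table lie within 1 Mb of MAARS, of which 9 had a count and 4 could be tested.

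Of the 7 members between 1 and 2 Mb, 2 rose, 1 fell and 4 did not pass. Cerkl, a ceramide kinase-like protein 1.03 Mb away and the called member nearest to MAARS, fell from 3.38, 3.01, 2.76 and 2.80 CPM to 1.99, 2.11, 1.84 and 1.78 CPM. Its groups did not overlap, the log2 fold change was -0.63 (interval -0.96 to -0.29, edgeR adjusted p = 0.00606), and 21.3% of its exon bases are shared with a gene on the opposite strand. Its level was low, with a mean of 51.1 raw counts. Prkra, the protein activator of the antiviral kinase PKR, lies 1.59 Mb away and rose from 25.1, 25.6, 25.4 and 22.1 CPM to 31.1, 26.3, 30.1 and 29.7 CPM. The groups did not overlap, with a log2 fold change of 0.25 (edgeR adjusted p = 0.0133). Rbm45, an RNA-binding protein at 1.85 Mb, rose from 29.7, 29.1, 25.6 and 25.1 CPM to 31.6, 31.2, 32.8 and 29.6 CPM, where the lowest MAARS gapmeR library lies under the highest control. Its log2 fold change was 0.19 (edgeR adjusted p = 0.0377), and the call was lost without control replicate 6 or 7 and without MAARS gapmeR replicate 9, 11 or 13, and with no filter on low counts, with adjusted p-values up to 0.107.

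The other 4 members of this band did not pass. Fkbp7, a peptidyl-prolyl isomerase of the endoplasmic reticulum, had a log2 fold change of -0.27 (edgeR adjusted p = 0.132). Plekha3, a lipid-binding protein of the Golgi, had -0.07 (edgeR adjusted p = 0.381), and Itprid2, which ties inositol trisphosphate receptors to actin, had 0.0043 (interval -0.10 to 0.11). Ccdc141, a coiled-coil protein, had -0.09 at a mean of 15.2 raw counts, with an interval from -0.74 to 0.57 that leaves both directions possible.

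**Figure D3:**
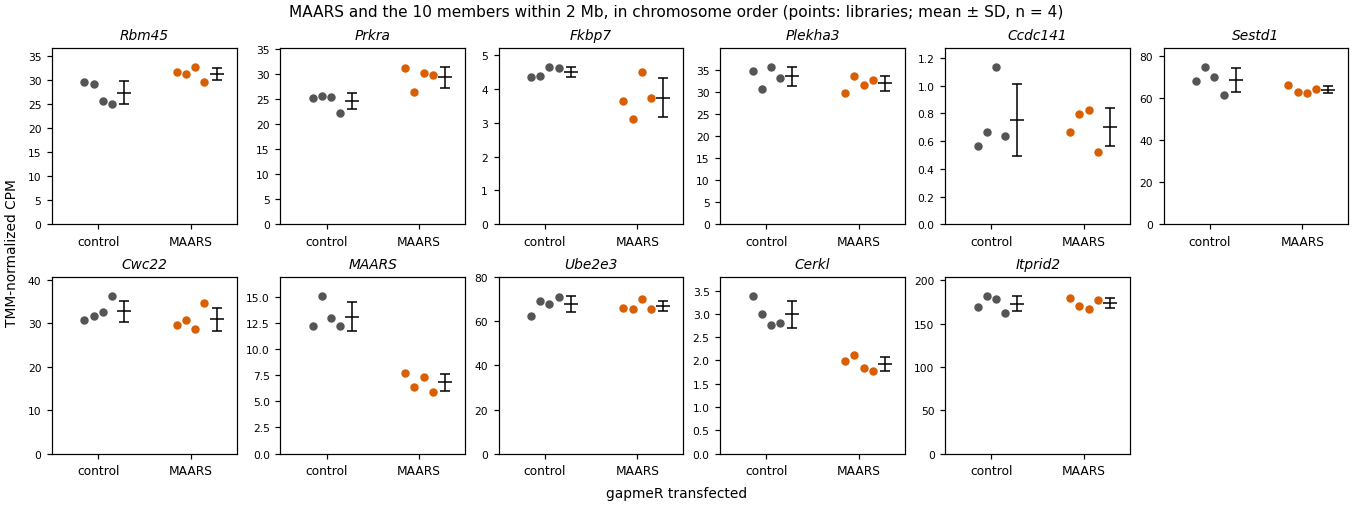
TMM-normalized CPM in each library (points) for MAARS and the 10 members within 2 Mb, in chromosome order, with the mean and SD of the 4 libraries per group beside them. MAARS and Cerkl fall and Prkra rises without overlap between groups, whereas the points of Cwc22 and Ube2e3 overlap.

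The largest difference of the 67 members was that of Ube2l6, at 6.50 Mb, the ubiquitin-conjugating enzyme that transfers ISG15, a ubiquitin-like protein induced by interferon. Ube2l6 was 209, 234, 276 and 261 CPM with control gapmeR and 48.0, 75.4, 87.4 and 61.8 CPM with MAARS gapmeR. The groups lie far apart, and the log2 fold change was -1.85 (interval -2.19 to -1.51, edgeR adjusted p = 7.32e-06). Per kb of exon its mean level was 122.8 CPM with control gapmeR, the highest of the 67 members, and 34.1 CPM with MAARS gapmeR, below Hnrnpa3, Ssb and Wipf1. All 27 of 27 interferon-stimulated genes in a list that does not include Ube2l6 were called lower, with a median log2 fold change of -2.32, against 24.0% of all genes lower. The list was chosen with these results known, and the part of this in the fall of Ube2l6 was not tested. Of the 20 of these genes that had a promoter window, 12 held the letters shown above, and the window of Ube2l6 did not.

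Ube2l6 lies in a stretch of 8 members, Selenoh to Timm10, at chromosome 2, 84669215 to 84830213, which was picked out after the values were seen and therefore carries no test. Of the 8, 5 fell (62.5%, against 24.0% of all genes), 1 rose (12.5%, against 21.3%) and 2 did not pass. Tmx2, a thioredoxin-related membrane protein of the endoplasmic reticulum, was 99.3, 92.7, 92.9 and 102 CPM with control gapmeR and 60.8, 69.6, 66.0 and 64.8 CPM with MAARS gapmeR, a log2 fold change of -0.57 (edgeR adjusted p = 1.37e-05). Med19, a subunit of the Mediator complex that links transcription factors to RNA polymerase, was 38.3, 35.4, 41.6 and 36.0 CPM and 25.7, 26.9, 25.5 and 23.9 CPM, also -0.57 (edgeR adjusted p = 4.95e-05). Neither gene had overlapping groups. Their annotated starts lie on opposite strands within 1 kb of each other, and 12.9% of the exon bases of Med19 and 10.8% of those of Tmx2 on its own strand are shared with neighbouring genes, and how such reads were assigned is not known. Timm10, a chaperone of the mitochondrial intermembrane space, fell by 0.50 on the log2 scale and Zdhhc5, a palmitoyltransferase, fell by 0.34. Selenoh, a selenoprotein of the nucleus, rose from 31.3, 25.1, 21.1 and 24.3 CPM to 32.3, 34.9, 33.8 and 34.8 CPM (log2 fold change 0.42, edgeR adjusted p = 0.00532). Clp1 and Serping1 did not pass.

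Head-to-head gene pairs with starts within 1 kb numbered 4 among the members. Tmx2 and Med19 differed from each other by less than 0.01 in log2 fold change, whereas Ccdc173 (-0.95) and Phospho2 (-0.20) lay 0.75 apart. Cir1 and Scrn3 had 0.21 and 0.12, and Mettl8 and Dcaf17 had 0.02 and -0.04. The sign was the same in 3 of these 4 pairs, against 56.55% of 909 such pairs elsewhere. The median difference within a pair was 0.07, against 0.28 elsewhere, and 4 pairs are too few to compare. Of the 66 pairs of neighbouring members 65.2% had the same sign, against 52.6% of 11737 neighbouring protein-coding pairs outside the window; neighbours can share reads and are not independent, so this is a description only.

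The members were also counted by role, beside a background of 24.0% of all genes lower and 21.3% higher. The roles hold 2 to 17 members each, and no direction by role was tested. In transcription and chromatin, 5 of 9 members fell (55.6%) and 1 rose (11.1%). Hat1, which acetylates new histones, fell from 58.3, 55.1, 60.6 and 60.8 CPM to 41.2, 49.8, 45.7 and 43.0 CPM (log2 fold change -0.38, edgeR adjusted p = 0.000579), while Med19, Sp3, Tlk1 and Atf2 fell as well, and Ssrp1, a subunit of the histone chaperone FACT, rose. In RNA processing and translation, 3 of 11 fell and 3 rose (27.3% each). Metap1d, a mitochondrial methionine aminopeptidase, rose from 7.73, 7.34, 7.08 and 6.38 CPM to 11.9, 10.7, 11.3 and 12.7 CPM (0.71, edgeR adjusted p = 0.00014), and Ola1, an Obg-like ATPase, fell by 0.26 on the log2 scale. Ssb, the La protein that binds the ends of new RNA polymerase III transcripts, fell by 0.17, and 25.5% of its exon bases are shared with genes on the opposite strand. Hnrnpa3, a splicing regulator at 86.1 CPM per kb of exon with control gapmeR and 84.2 with MAARS gapmeR, had a log2 fold change of -0.03 and did not pass.

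In the ubiquitin, protein folding and palmitoylation group 3 of 9 fell (33.3%), all of them named above, and 2 rose (22.2%). Klhl23, a Kelch-like protein, had the largest rise of the 67 members, from 2.41, 1.99, 1.73 and 2.11 CPM to 3.41, 4.06, 5.05 and 4.46 CPM without overlap (log2 fold change 1.04, edgeR adjusted p = 0.00052). Its mean was 68.5 raw counts. Dnajc10, a disulfide reductase of the endoplasmic reticulum, rose by 0.30. In lipid and small-molecule metabolism 2 of 7 fell and 2 rose (28.6% each). Agps, which makes the ether bond of plasmalogens, rose from 97.2, 89.4, 87.9 and 84.0 CPM to 120.2, 129, 121 and 113 CPM (0.43, edgeR adjusted p = 0.000117), and Pdk1, a kinase that inhibits pyruvate dehydrogenase, rose by 0.41. Dhrs9, a short-chain dehydrogenase, fell by 0.66, from 26.6, 25.3, 25.9 and 18.7 CPM to 15.2, 17.1, 14.9 and 13.8 CPM.

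Of the 4 mitochondrial and nuclear pore members 3 fell (75%, against 24.0% of all genes) and 0 rose. Nup35, a nuclear pore protein, fell from 11.1, 12.3, 12.1 and 11.3 CPM to 6.67, 9.11, 7.26 and 6.80 CPM (log2 fold change -0.64, edgeR adjusted p = 0.000716), and Timm10 and Fastkd1 fell too. In cytoskeleton, adhesion and trafficking 3 of 17 fell (17.6%) and 4 rose (23.5%, against 21.3% of all genes). Gorasp2, a Golgi stacking protein, fell from 104, 103, 103 and 104 CPM to 83.4, 82.1, 76.4 and 76.9 CPM (-0.38, edgeR adjusted p = 5.11e-05), and 10.0% of its exon bases are shared with genes on the opposite strand. Wipf1, which stabilises the actin regulator WASP, fell from 285, 289, 299 and 278 CPM to 224, 235, 227 and 212 CPM (-0.36, edgeR adjusted p = 0.000101). Nckap1, a subunit of the actin-regulating WAVE complex, rose by 0.45, and neither its groups nor those of Gorasp2 and Wipf1 overlapped. Of the other members that rose in this group, Ctnnd1, the adhesion protein p120 catenin, shares 61.2% of its exon bases with a gene on the same strand, so its rise of 0.14 cannot be assigned to it alone. In the kinase and phosphatase group 0 of 2 and in the receptor group 0 of 3 were called.

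Of 3 secreted proteins 1 rose and 0 fell. Tfpi, the inhibitor of tissue factor at the start of coagulation, rose from 20.5, 19.0, 17.0 and 13.9 CPM to 25.2, 24.8, 29.1 and 25.2 CPM (log2 fold change 0.57, interval 0.33 to 0.80, edgeR adjusted p = 0.00135). Among markers of other cell types, 0 of 6 tested fibroblast and stromal markers were called. The sum of the list of 7 ran from 459.6 to 1047 CPM in control libraries and from 719.5 to 1237 CPM in MAARS gapmeR libraries. The collagen genes Col1a2 and Col1a1 were the highest of the list, so stromal transcripts were present in both groups. Over the control libraries Col1a2 averaged 351.4 CPM and Col1a1 averaged 335.3 CPM. After MAARS knockdown the mean of each was 436.5 CPM. Lum, the lowest of the list, was at 0 in all control libraries. Of smooth muscle markers 2 of 3 tested rose (against 21.3% of all genes), with sums from 60.2 to 115 CPM and from 112 to 203 CPM. Of endothelial markers 1 of 3 fell, Kdr, with sums from 17.3 to 22.3 CPM and from 8.36 to 9.11 CPM. The part of these markers in the rise of Tfpi was not tested.

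**Figure D4:**
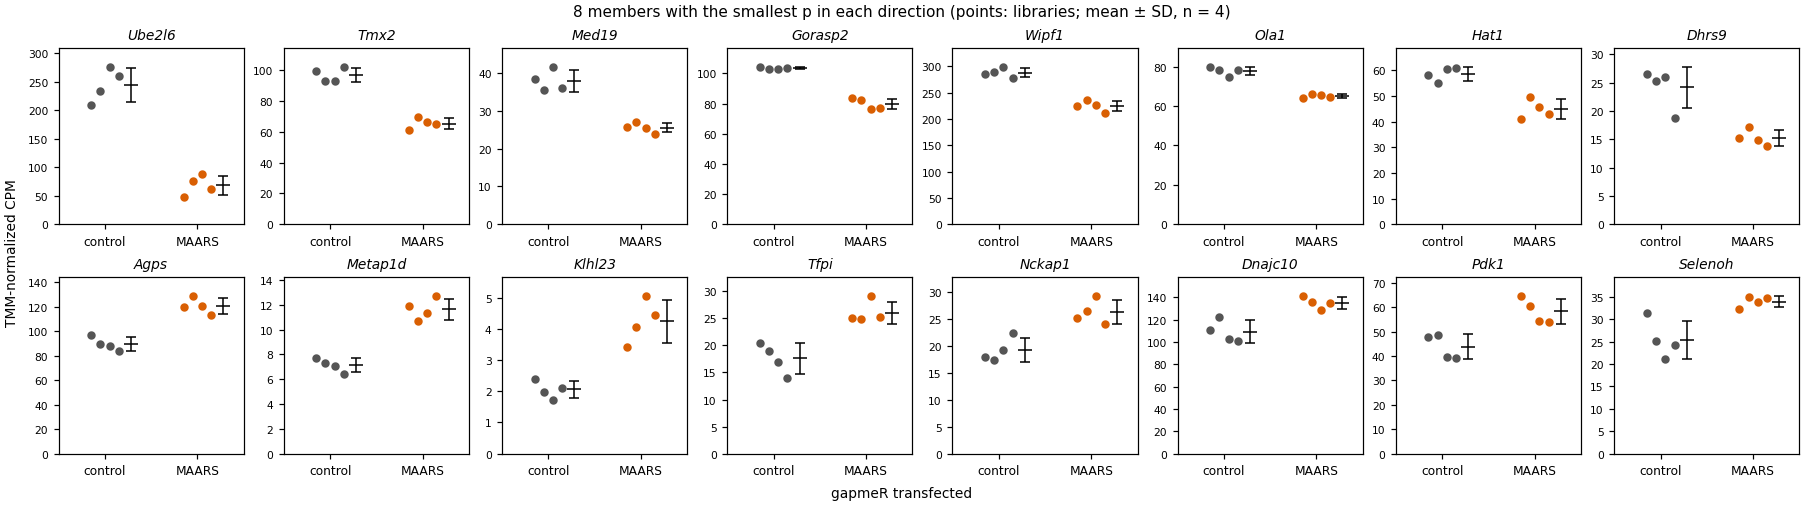
TMM-normalized CPM in each library (points) for the 8 members with the smallest p in each direction, lower in the top row and higher in the bottom row, with mean and SD of 4 libraries beside them. In each of the 16 panels the groups do not overlap, as the choice of these genes required.

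At the margins of the selection, Cers6 was the member closest to the lower edge of the window (log2 fold change -0.14) and Stk39, starting 0.0271 Mb beyond it, had 0.32. At the upper edge Tnks1bp1 (0.25) was the last member and Ptprj, the next protein-coding gene that reached the mean count and was not set aside by name, had 0.01. Serping1 at a mean of 10 counts had -0.52, with an interval from -1.78 to 0.74 and values from -0.87 to -0.18 when single libraries were left out. The value nearest 0 came without MAARS gapmeR replicate 9, which held 1 count, and that without control replicate 6 was -0.21. Gm26558 at a mean of 9.5 had -0.45. These values are given without a test.

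Library totals ran from 19287279 to 20567123 counts in the control group and from 20839671 to 24541205 in the MAARS gapmeR group, so every MAARS gapmeR library was deeper. All 8 macrophage markers were detected, with sums from 13836 to 17118 CPM and from 17011 to 20241 CPM, 5 of them called higher and 2 lower. With counts thinned to the smallest total, 36 of the 66 members in that fit were called (54.55%, against 45.18% of 12909 genes). Of these, 34 were called in the same direction as without thinning.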

How the data were processed

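RNA-Seq of mouse BMDMs with control or MAARS gapmeR (4 libraries each) was used. Per the labels and the submitters' processing notes, ribodepleted RNA was read as pairs of 100 nt, and the authors trimmed reads with Trimmomatic 0.36, aligned them with STAR 2.5.2b to GRCm38 and counted them per gene with featureCounts of Subread 1.5.2. The deposited values are raw counts that were not normalized. Strand setting and treatment of reads mapping to several places are not given in the sources used here. Samples were grouped by their labels.

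From these counts, genes were kept with filterByExpr of edgeR 4.0.16 (minimum count 10, minimum total 15, R 4.3.3), scaled by TMM and compared by glmQLFit and glmQLFTest, with Benjamini-Hochberg adjustment over all 13051 genes, called at an adjusted p under 0.05. Intervals are 95%. Positions and exon overlaps came from GENCODE M21, which held 99.47% of the identifiers, and promoter windows from RefSeq. The members, gene lists and tests were chosen with earlier results of these data known. Named genes were MAARS, members within 2 Mb, the 8 with the smallest p in each direction without overlap between groups, the 3 most expressed per exon length, the smallest p per role, and those at the margins; others were named after their values were seen. Alternatives were RLE or upper-quartile factors, DESeq2 1.42.0, limma-voom (limma 3.58.1), no filter, a mean count of at least 10, 1 surrogate variable (sva 3.50.0), length and GC offsets, each library left out, other windows, an adjusted p under 0.01 and, added after seeing the data, thinned counts. The scripts were tested on simulated data.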

Additional observations from a re-analysis of the deposited data

Results flagged for a closer look

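In 70 groups of 4 libraries examined (MAARS and 34 named members, 2 groups each), 4 held a library far from the other 3, where chance alone gives about 1 in 20. Dhrs9 was 18.7 CPM in control replicate 7, against 25.3 to 26.6 in the other control libraries. Prkra was 22.1 CPM in the same library, against 25.1 to 25.6. Ube2e3 was 70.1 CPM in MAARS gapmeR replicate 13, against 65.5 to 66.2, and Tfpi was 29.1 CPM in that library, against 24.8 to 25.2.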

How the results depend on the processing

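Of 22 named members called, 19 kept their direction and an adjusted p under 0.05 in all 17 refits, as did MAARS (-1.01 to -0.88). Of the other 3, Rbm45 is described above, Ssb lost its call with upper-quartile factors and with length and GC offsets, and Tnks1bp1 with the offsets. Among the named members not called before, Cers6 passed with the offsets and without control replicate 7. Sestd1 passed without control replicate 7, and Fam171b passed with 1 surrogate variable and without MAARS gapmeR replicate 9. The median of the members was -0.022 with upper-quartile factors (0.07 over all genes) and -0.038 with the offsets. Leaving out each library gave medians from -0.11 to -0.052, 17 to 20 members lower and 10 to 13 higher. In these fits 40.3% to 47.76% of the members were called, against 38.49% to 42.37% of all genes. A window of 5 Mb held 5 lower and 5 higher of 25 members (median -0.032), and one of 2 Mb 1 lower and 2 higher of 10 (median -0.078). These are 40% and 30% called, against 45.4% of all genes. An adjusted p under 0.01 left 16 lower and 8 higher, and the share of all genes under that limit was not counted. Among the named members, the sign turned in 4, none of them called, and members not named were not followed in this way. Hnrnpa3 had 0.030 with upper-quartile factors and 0.0093 with the offsets, and Ube2e3 had 0.043 and 0.013. Itprid2 had -0.00064 with no filter, -0.0010 with 1 surrogate variable and -0.0034 with the offsets. With libraries left out, Ube2e3 ran from -0.052 to 0.0032, Itprid2 from -0.026 to 0.022 and Ccdc141 from -0.20 to 0.17. The causes were not tested. No paired analysis was possible because the groups share no replicate numbers.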

Other observations

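Besides MAARS, 5 non-coding genes of the window could be tested. Of these, 2 were lower after MAARS knockdown (40%, against 24.0% of all genes tested) and 0 were higher. Gm13657, a processed transcript at chromosome 2, 75777188 to 75782306, 2.46 Mb from MAARS, had 46, 67, 80 and 57 counts in the control libraries and 8, 16, 31 and 23 in the MAARS gapmeR libraries. It was named after its values were seen. Its groups did not overlap, and its level was 3.22 ± 0.854 CPM (SD, n = 4) and 0.859 ± 0.454 CPM (SD, n = 4), a log2 fold change of -1.90 (edgeR adjusted p = 0.000781). Sp3os, antisense to Sp3, had a log2 fold change of -0.37 (edgeR adjusted p = 0.0255). Sp3, a transcription factor on the opposite strand, had -0.19, and reads of the pair cannot be told apart where the strand setting of the counting is unknown. Rps6-ps4, E030042O20Rik and Gm13710 did not pass.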
